A study of Mus musculus with 54 samples.

Results

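Brain-derived neurotrophic factor (Bdnf) and neurotrophin 3 (Ntf3), the receptors Ntrk2 (TrkB) and Ntrk3 (TrkC), neuronal nitric oxide synthase (Nos1), its adaptor Nos1ap, and the cGMP-dependent protein kinases Prkg1 and Prkg2 were followed in the suprachiasmatic nucleus (SCN), the hypothalamic pacemaker, across a light/dark cycle. The 8 genes were taken by symbol from the deposited count table, in which they made up 8 of 30031 genes, and all 8 were among the 18941 genes tested (at least 1 read in more than 6 libraries). The tissue came from male C3H/HeH mice of 10-12 weeks, housed under 12 h of light and 12 h of darkness with no further treatment, and was collected by laser-capture microdissection at zeitgeber times (ZT, hours after lights on) 2, 6, 10, 14, 18 and 22. All deposited library names carry WT, read here as wild type. Every library held tissue pooled from 5 animals, 3 libraries (replicates A, B and C) were made at each of the 6 timepoints, and each was run on 3 lanes, giving 54 lane samples of 18 libraries. Spread between replicates is therefore spread between pools, and the mice were not studied one by one.

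Light at night reaches the SCN through glutamatergic fibres of the retina, and light early in the night delays the clock whereas light late in the night advances it. Bdnf acting on Ntrk2 is known to permit the SCN to respond to this input, and nitric oxide made by Nos1 downstream of NMDA receptors relays it, with cGMP and its kinases required for advances. In this study ZT14 stands for the delay window and ZT22 for the advance window. The question put to these genes was therefore whether their transcripts changed over the cycle, and whether they stood higher at ZT14 and ZT22 than at the neighbouring ZT18 and ZT2.

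Library totals ran from 15412981 to 35820945 counts, with a median of 25075231. In a principal component analysis of the 500 most variable genes the libraries formed 3 clusters. One held ZT14 and ZT18, another ZT6 and ZT10, and the last ZT2 and ZT22. The first component held 41.0% of the variance, and the median distance on the first pair of components was 11.7 within clusters and 61.1 between them. The clusters were read from the data. The study describes a separation by timepoint and sequencing batch, but the batch of each library is not given in the sources used here. Time and any difference in how the clusters were sequenced therefore cannot be told apart, and differences inside a cluster are given beside those across the whole cycle. All 8 SCN markers (Avp, Vip, Grp, Nms, Prok2, Six6, Lhx1 and Rorb) were detected and 7 changed with time. Their summed level, in CPM (reads per 1000000 of the library total after TMM scaling), was lowest at ZT14 (1520 to 2085), where Nos1 and Nos1ap had their highest means, and highest at ZT6 (4712 to 5222), and its part in the members' results was not tested. Vip was the largest part of this sum, and the markers did not all follow it. Vip and Nms had their lowest library at ZT14. Avp, Grp and Six6 were lower in every ZT22 library than at ZT14 (Avp 3.12 to 8.81 against 40.8 to 66.6 CPM). The clock genes differed with time, with the highest means of Dbp and Per2 at ZT6 and that of Arntl at ZT14. For Per2 this rested on ZT6 replicate C, since the ZT6 libraries held 92.6, 84.8 and 192 CPM and those of ZT10 96.7, 105 and 116. Arntl overlapped between ZT14 and ZT18.

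Promoter windows of the ligands are shown because Bdnf and Ntf3 were the members whose means were highest at ZT14 and ZT22 and also changed with time. RefSeq holds 7 promoter windows for Bdnf (250 bases before a transcript start to 50 after it, GRCm38.p6), since the gene has several alternative first exons, and 2 for Ntf3. The windows were searched on both strands for the cAMP response element TGACGTCA, for its core TGACG, and for the E-box CACGTG that clock proteins can bind. Capitals mark the matches, which lie 35 bases before the start in Bdnf (chr2:109692186-109692485, plus strand) and 231 bases before the start in Ntf3 (chr6:126166695-126166994, minus strand).
Bdnf window 3: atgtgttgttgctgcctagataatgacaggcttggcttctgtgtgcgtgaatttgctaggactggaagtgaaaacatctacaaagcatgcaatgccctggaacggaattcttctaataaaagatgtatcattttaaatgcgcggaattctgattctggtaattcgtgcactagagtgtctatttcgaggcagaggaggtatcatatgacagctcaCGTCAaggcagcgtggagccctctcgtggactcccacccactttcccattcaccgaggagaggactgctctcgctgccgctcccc
Ntf3 window 1: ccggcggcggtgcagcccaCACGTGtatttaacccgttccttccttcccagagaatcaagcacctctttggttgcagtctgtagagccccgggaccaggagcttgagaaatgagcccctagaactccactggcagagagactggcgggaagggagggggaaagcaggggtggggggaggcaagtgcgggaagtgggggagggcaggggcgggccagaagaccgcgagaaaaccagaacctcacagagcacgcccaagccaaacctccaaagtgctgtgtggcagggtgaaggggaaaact
The TGACG core, read on the opposite strand, was in 1 of the 7 Bdnf windows and in neither Ntf3 window, and 20.8% of all 32851 promoter windows held it. CACGTG was in 1 of the 2 Ntf3 windows and in none of Bdnf, against 7.15% of all windows. The full TGACGTCA, held by 1.79% of all windows, was in no window of the 6 members in the table. Of the other members, the Nos1 window held 1 TGACG core, and the windows of Ntrk2, Nos1ap and Prkg1 held no match. The counts are summed over each gene, so the start used by the transcripts measured here was not resolved.

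Compared per kilobase of exon, the receptor Ntrk2 was the most abundant member and Prkg1 the least. Mean levels over the 18 libraries were 26.0 CPM per kb for Ntrk2, 10.7 for Prkg2, 7.60 for Nos1ap, 4.09 for Bdnf, 3.13 for Nos1, 2.27 for Ntrk3, 2.23 for Ntf3 and 0.133 for Prkg1. Ntf3 had no read in 3 libraries (ZT6 replicate C and ZT18 replicates B and C), and Prkg1 had none in 2 (ZT6 replicate C and ZT18 replicate C). Single libraries of neighbouring genes in this order overlapped, apart from Ntrk2, whose lowest library lay above every library of Prkg2. The length is the union of all annotated exons of a gene, 30.2 kb for Ntrk3 and 1.71 kb for Ntf3, so the order depends on the annotation. In CPM without length, Ntrk3 stood next after Ntrk2, with means of 68.5 and 502.

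**Figure D1:**
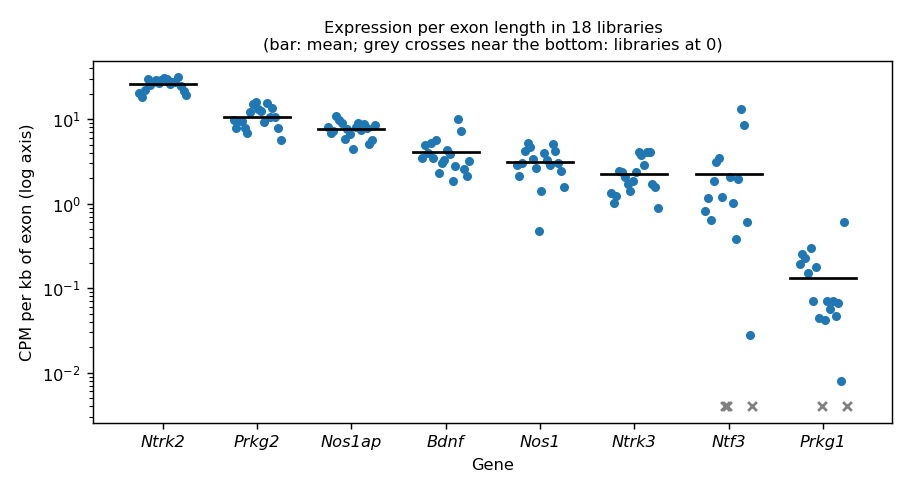
CPM per kilobase of exon (log axis) for each of the 8 genes, with 1 point for each of the 18 libraries, the mean as a bar, and libraries without a read as grey crosses. Ntrk2 (mean 26.0) stands above all others and Prkg1 (mean 0.133) lies lowest.

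By the edgeR quasi-likelihood test over the 6 timepoints, 5 of the 8 members changed with time at an adjusted p under 0.05 (Bdnf, Ntf3, Ntrk2, Ntrk3 and Prkg2). Nos1, Nos1ap and Prkg1 did not pass. Of all genes tested, 44.0% passed the same test, and 52.1% had an unadjusted p under 0.05, where the same 5 members stood. With the added demand of a 24 h rhythm by JTK_CYCLE, a rank test for periodic series, 3 members were called cycling (Ntrk2, Ntrk3 and Prkg2), against 29.8% of all genes. Both counts are near these background shares. The ZT14 and ZT22 means were the highest pair in 4 members (Bdnf, Ntf3, Nos1 and Nos1ap), against 5.43% of all genes, and 2 of these 4 (Bdnf and Ntf3) also changed with time, against 2.15%. The members were chosen with earlier results of these data known, and the study had already placed Nos1 among genes with peaks at ZT14 and ZT22. These shares are therefore a description and no test of the list.

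**Figure D2:**
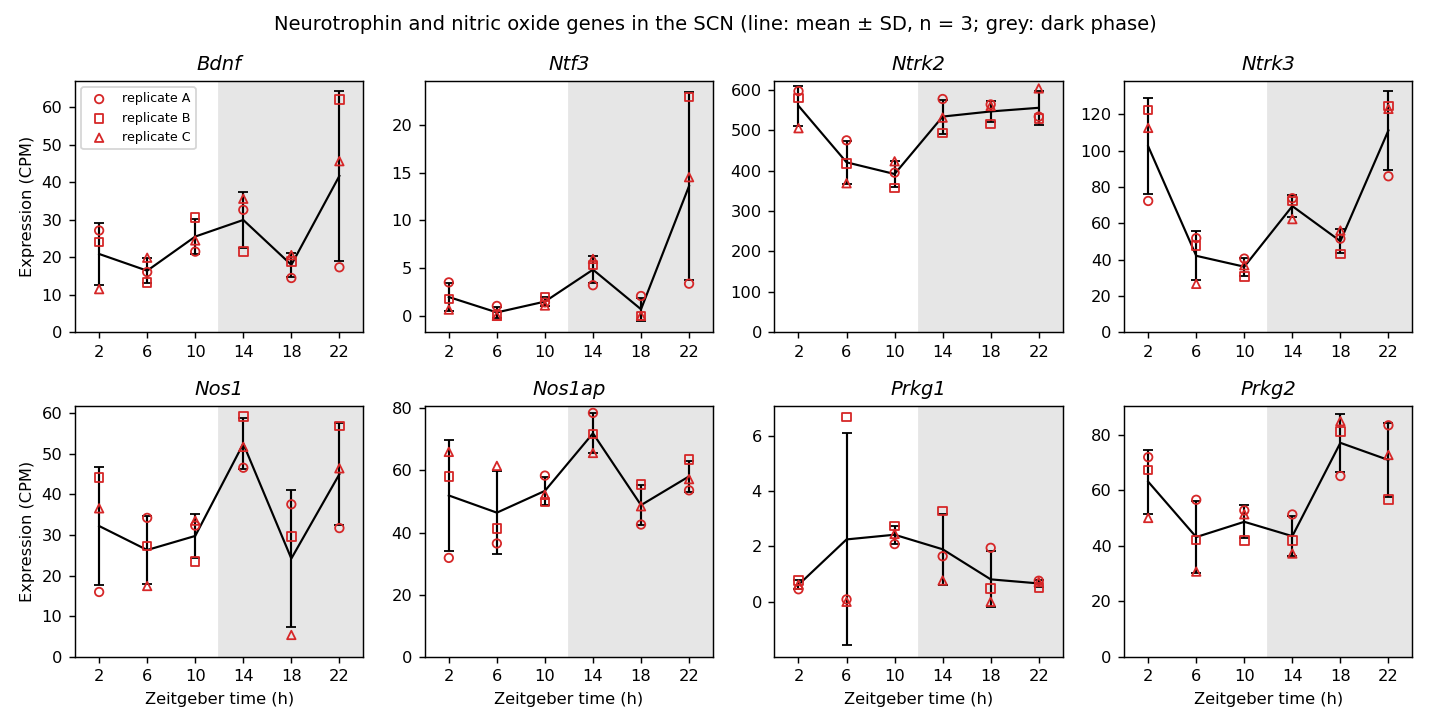
Expression (CPM) of each gene against zeitgeber time (h), with 1 symbol per replicate, the mean ± SD of 3 replicates as a line, and the dark phase in grey. Bdnf and Ntf3 reach their highest means at ZT22 (41.7 and 13.6 CPM) with widely spread replicates, while Ntrk2 and Ntrk3 are lowest at ZT6 and ZT10.

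Bdnf, the ligand of Ntrk2 (chr2:109674700-109727007, GRCm38), had its highest mean at ZT22 and its next highest at ZT14. At ZT22 the replicates A, B and C held 17.3, 62.2 and 45.7 CPM (41.7 ± 22.7, SD, n = 3), and at ZT14 they held 32.7, 21.6 and 35.6 CPM. At ZT2 they held 27.1, 24.01 and 11.5 CPM, at ZT6 16.05, 13.3 and 19.9, at ZT10 21.5, 30.6 and 24.5, and at ZT18 14.5, 18.9 and 20.6. The ZT14 libraries all lay above the ZT18 libraries, but ZT22 replicate A lay among the lowest values of the series, so that ZT22 overlapped each of the other timepoints. The highest mean exceeded the lowest, at ZT6, 2.54-fold, with an adjusted p of 0.0483 in the edgeR test over timepoints, close to the threshold. JTK_CYCLE found no 24 h rhythm, with a p of 1.00. The call held without any single one of ZT2 replicates A and C, ZT14 replicate B, ZT18 replicate C and ZT22 replicate A, and was lost without any one of the other 13 libraries (edgeR adjusted p from 0.00385 to 0.203).

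Ntf3, the ligand of Ntrk3 (chr6:126101412-126166910), showed the same pair of high timepoints as Bdnf. Per kilobase of exon its mean lay below that of Bdnf at ZT14 (2.82 against 4.82 CPM per kb) and above it at ZT22 (7.93 against 6.71). In CPM without length it lay below Bdnf at ZT22 as well (13.6 against 41.7). At ZT22 the Ntf3 replicates held 3.37, 22.9 and 14.5 CPM, from 93, 623 and 405 reads, and at ZT14 they held 3.21, 5.34 and 5.97 CPM. The libraries of the remaining timepoints held between 0 and 3.51 CPM, which is at most 65 reads, and 3 of them had no read. The ZT14 libraries lay above those of ZT6, ZT10 and ZT18 and overlapped ZT2, where replicate A held 3.51 CPM. The ZT22 mean was 13.6 ± 9.79 CPM (SD, n = 3) and the lowest mean, at ZT6, was 0.363 ± 0.588, a 37.5-fold difference with an edgeR adjusted p over timepoints of 0.0296. The size of this fold rests on ZT6 replicate A, at 1.04 CPM, beside 0.0474 and 0 in the other ZT6 libraries. Without it the log2 difference between the ZT22 and ZT6 means was 9.16 in place of 5.23, with 1 read left at ZT6. Without ZT22 replicate B or without ZT22 replicate C the call was lost (highest adjusted p 0.142), and without any other single library it was kept. JTK_CYCLE gave a p of 0.796.

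The summed level of 8 markers of telencephalic excitatory neurons, which do not lie in the SCN, was highest in the libraries with the most of both ligands. All 8 were tested, 4 changed with time by the edgeR test (Slc17a7, Neurod6, Tbr1 and Nrn1), and none was at 0 in every library. The markers did not all follow the sum, since Emx1 and Fezf2 had their highest library at ZT10 (6.18 and 8.98 CPM) and at most 1.54 and 3.53 CPM at ZT22. Their summed level was 146, 336 and 297 CPM in ZT22 replicates A, B and C, 188, 157 and 344 at ZT14, 80.5, 81.4 and 154 at ZT2, 54.5, 43.2 and 31.2 at ZT6, 71.7, 95.5 and 144 at ZT10, and 72.3, 99.6 and 98.7 at ZT18. The 3 libraries with the highest sums (ZT22 replicates B and C and ZT14 replicate C) were also the 3 with the most Bdnf and the 3 with the most Ntf3. When these 3 were left out together, a choice made after seeing the data, Bdnf had a log2 difference of 0.07 between ZT22 and ZT6 and an adjusted p over timepoints of 0.430, and Ntf3 one of 3.21 with an adjusted p of 0.562. ZT22 then rested on 1 library, which was assumed to vary like the others. As these libraries held the most of both ligands, lower values without them follow from the choice. The part of these markers in the Bdnf and Ntf3 results was not tested, and in pooled tissue fewer cells of a type and less RNA per cell cannot be told apart.

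Markers of neighbouring hypothalamic neurons also differed among these libraries. Of 8 such markers, all were tested, 3 changed with time (Oxt, Trh and Pomc) and none was at 0 in every library. Their summed level was 232, 37.6 and 56.2 CPM in ZT22 replicates A, B and C, 25.2, 45.4 and 115 at ZT2, and 88.5 to 230 in the libraries of the other timepoints. Sst, which did not pass the test over timepoints (edgeR adjusted p 0.202), made up most of the sum in ZT22 replicate A and ZT2 replicate C (157 and 86.3 CPM) but held 6.05 to 19.4 CPM in the other ZT2 and ZT22 libraries, while Oxt stood at 0.215 CPM or less at ZT22. No single order linked the sum with Bdnf. The library with the highest sum of its timepoint held the least Bdnf at ZT2, ZT6 and ZT22, the most at ZT10 and ZT14, and the middle value at ZT18. The part of these markers in the Bdnf results was not tested.

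**Figure D3:**
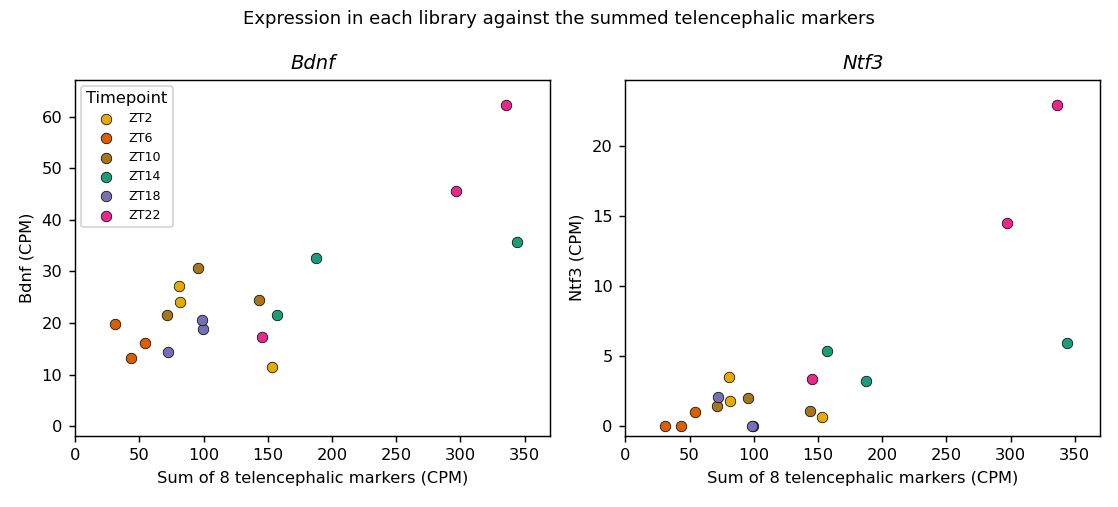
Bdnf (left) and Ntf3 (right), in CPM, against the summed CPM of 8 telencephalic excitatory neuron markers, with 1 point per library coloured by timepoint. ZT22 replicates B and C hold the most of both ligands, at marker sums of 336 and 297, while ZT22 replicate A lies at 146.

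Ntrk2, the receptor of Bdnf (chr13:58806569-59133970), was lowest in the light phase at ZT6 and ZT10. The ZT10 libraries held 395, 357 and 424 CPM and the ZT6 libraries 476, 418 and 369. All 12 libraries of the other timepoints lay above these, from 494 CPM in ZT14 replicate B to 604 CPM in ZT22 replicate C, and their 4 timepoints overlapped one another. The mean fell from 561 ± 48.9 CPM at ZT2 to 392 ± 33.4 CPM at ZT10 (SD, n = 3), a 1.43-fold difference (edgeR adjusted p over timepoints of 0.0132). JTK_CYCLE gave a p of 0.00942 with a peak at ZT22. The deposited tables disagreed in the libraries where Ntrk2 was lowest. Of the genes in both tables, 36.8% to 47.1% had the same number of reads in the count table and in the reads recovered from the normalised table in each ZT6 and ZT10 library, against 94.7% to 96.3% in each other library, and the recovered reads of ZT6 and ZT10 were mostly fewer. Whether the counting differed for these timepoints is not given in the sources used here, and its part in the Ntrk2 and Ntrk3 results was not tested beyond a fit of the recovered reads. In that fit the Ntrk2 log2 difference between ZT2 and ZT10 was 0.37 (adjusted p 0.131), beside 0.52 on the counts.

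Ntrk3, the receptor of Ntf3 (chr7:78175959-78738012), followed Ntrk2 in the light phase and differed by more. The ZT22 libraries held 85.9, 125 and 123 CPM and those of ZT2 72.3, 122 and 113, whereas those of ZT10 held 40.5, 30.8 and 36.9 and those of ZT6 51.8, 47.8 and 26.6. In between, the ZT14 libraries held 73.8, 72.3 and 62.3 CPM and those of ZT18 51.5, 42.9 and 56.0. ZT14 lay wholly above ZT18 and wholly below ZT22. The ZT22 mean was 3.08-fold that of ZT10, with an edgeR adjusted p over timepoints of 8.29e-05, and JTK_CYCLE gave a p of 0.00473 with a peak at ZT22. The time call held under every alternative and without any single library, with a log2 difference between ZT22 and ZT10 of 1.75 on the recovered reads beside 1.62 on the counts, while the cycling call was lost without the 3 libraries of highest telencephalic marker sum.

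Of the variance among the 6 timepoint means on the log2 scale, 97.9% for Ntrk2 and 94.0% for Ntrk3 lay between the 3 clusters of libraries, against a median of 90.3% over the genes that changed with time. The share was 45.3% for Prkg2, 33.8% for Ntf3 and 15.9% for Bdnf. Astrocytes are known to express Ntrk2, largely in a form without the kinase. The summed level of 8 astrocyte markers, of which 7 changed with time and none was at 0 in every library, was 1827 to 2519 CPM in the ZT6 and ZT10 libraries and 2861 to 5473 CPM in the others. These groups did not overlap, as for Ntrk2, and their part in the Ntrk2 and Ntrk3 results was not tested.

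Nos1, the neuronal nitric oxide synthase (chr5:117781032-117958840), was highest at ZT14, where its libraries held 46.5, 59.1 and 51.7 CPM. At ZT22 they held 31.7, 56.8 and 46.4 CPM, at ZT2 15.9, 44.1 and 36.5, at ZT10 32.3, 23.4 and 33.5, at ZT6 34.2, 27.2 and 17.4, and at ZT18 37.5, 29.6 and 5.37. ZT14 lay above all of these but ZT22, which it overlapped, and the lowest value, 88 reads in ZT18 replicate C, came from the library with the fewest counts. Over the 6 timepoints the edgeR adjusted p was 0.262 and the JTK_CYCLE p was 1.00. Exons of Nos1 overlap those of the antisense gene Gm26995, and those of Bdnf overlap antisense Gm45346, in GENCODE M21. Whether the counting used strand was not given in the sources used here, so reads of such pairs may not be separable.

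Nos1ap, which binds Nos1 and links it to other proteins (chr1:170302668-170589861), was also highest at ZT14. Its ZT14 libraries held 78.5, 71.7 and 65.6 CPM, above all libraries of ZT6, ZT10, ZT18 and ZT22 and overlapping ZT2, where they held 31.8, 58.0 and 66.0. Values at the remaining timepoints ran from 36.5 to 63.5 CPM. The highest mean was 1.55-fold the lowest, at ZT6, and the edgeR adjusted p over timepoints was 0.233. On the recovered reads, which were lower for Nos1ap in every library, by 7.67% or more, that p was 0.0213. Its exons overlap those of Gm7694 on the same strand.

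Prkg2, the membrane-bound cGMP-dependent kinase (chr5:98929773-99037351), had another pattern, with high values at ZT18 and ZT22 and low values at ZT6, ZT10 and ZT14. The ZT18 libraries held 65.1, 81.2 and 84.8 CPM and the ZT14 libraries 51.2, 41.9 and 37.2. The ZT22 libraries held 83.3, 56.6 and 72.6 CPM, and those of ZT2 71.9, 67.3 and 49.98. At ZT6 they held 56.5, 42.1 and 30.7 CPM and at ZT10 52.7, 41.8 and 51.3. ZT14 lay below every library of ZT18 and ZT22. The ZT18 mean was 1.79-fold the ZT6 mean (edgeR adjusted p over timepoints of 0.0137), and JTK_CYCLE gave a p of 0.0319 with a peak at ZT22. The cycling call was lost on the recovered reads, with adjustment of JTK_CYCLE over genes, and without the 3 libraries of highest telencephalic marker sum. The time call held under every alternative and without any single library, with an edgeR or DESeq2 adjusted p of at most 0.0453.

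Prkg1, the soluble cGMP-dependent kinase best known from smooth muscle (chr19:30564489-31765033), was close to the limit of detection. Its libraries held 0 to 141 reads, and the highest level, 6.68 CPM, stood in ZT6 replicate B beside 0.0868 and 0 CPM in the other ZT6 replicates. The ZT10 libraries lay close together, at 2.09, 2.73 and 2.45 CPM, above those of ZT2 and ZT22, which ran from 0.452 to 0.775 CPM. Here too the deposited tables disagreed, with 20, 32 and 43 recovered reads at ZT10 beside 43, 63 and 52 counted, and the same reads at ZT2 and ZT22. The edgeR adjusted p over timepoints was 0.631, and the ZT6 replicates spanned the whole range of the series.

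To ask whether the members stood higher in the phase-shifting windows, ZT14 and ZT22 were compared with ZT18 and ZT2, a contrast in which the 2 clusters that hold these timepoints each enter with both signs. No member passed at an adjusted p under 0.05 in edgeR, and none did in DESeq2, while 0.148% of all genes passed in edgeR and 3.02% in DESeq2 (of the genes it gave an adjusted p). At an unadjusted p under 0.05, 4 members were higher in the windows, against 5.94% of all genes. They were the same 4 whose ZT14 and ZT22 means ranked highest, a measure taken from the same libraries. The log2 difference was 0.87 ± 0.27 for Bdnf (SE, edgeR adjusted p 0.207), 2.77 ± 0.96 for Ntf3 (adjusted p 0.272), 0.80 ± 0.34 for Nos1 (adjusted p 0.413) and 0.36 ± 0.17 for Nos1ap (adjusted p 0.463). The differences of the receptors were 0.29 ± 0.17 for Ntrk3 and -0.02 ± 0.10 for Ntrk2, and those of the kinases were 0.65 ± 1.00 for Prkg1 and -0.33 ± 0.16 for Prkg2. The median over the 8 members was 0.51, with 6 above 0, beside a median of 0.01 over all genes tested, of which 51.3% were above 0. As the members were chosen with earlier results of these data known, neither this median nor the share at an unadjusted p tests the list. Without the 3 libraries of highest telencephalic marker sum the Bdnf difference was 0.16 and that of Ntf3 1.68. Without ZT22 replicate A, Bdnf passed (edgeR adjusted p 0.0462).

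**Figure D4:**
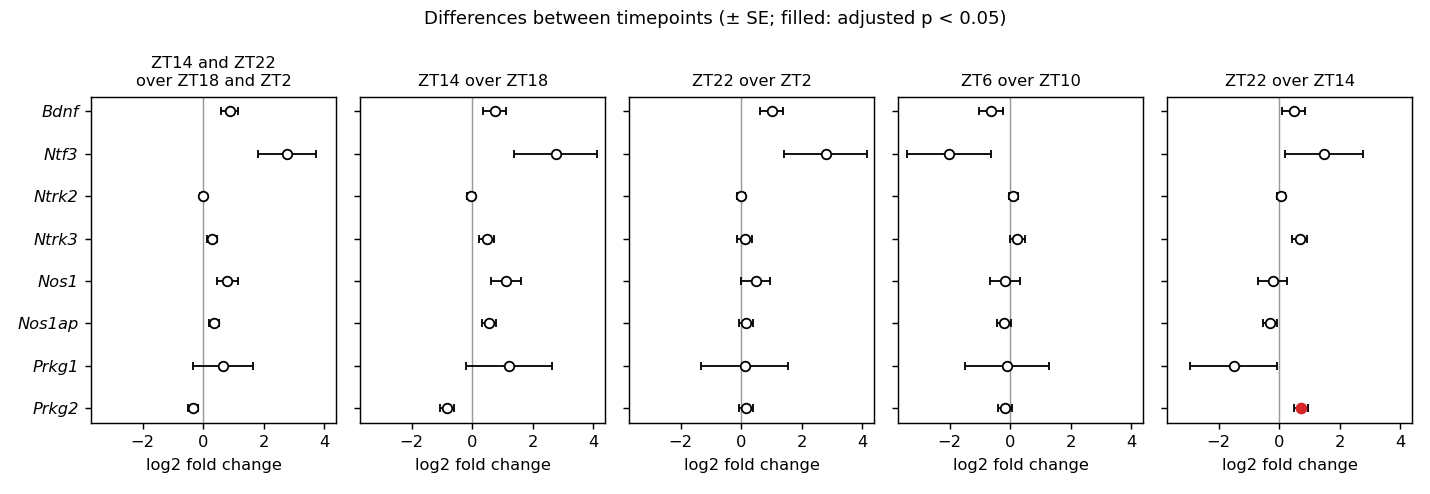
Log2 fold change ± SE of the 8 genes in 5 comparisons of timepoints, from 1 edgeR fit of 18 libraries, with filled points where the adjusted p is under 0.05. Only Prkg2 at ZT22 over ZT14 (0.71 ± 0.23) is filled, while 6 of the 8 genes (all but Ntrk2 and Prkg2) lie above 0 in the first 3 comparisons.

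Between ZT14 and ZT18, the early and the middle of the night, no member passed in edgeR, and 0.570% of all genes did. In DESeq2, 1 member passed (Prkg2, adjusted p 0.0134), against 5.17% of all genes with an adjusted p in DESeq2. At an unadjusted p under 0.05, Nos1 and Nos1ap were higher at ZT14, against 7.09% of all genes, and Prkg2 was lower, against 6.45%. The log2 difference was 1.11 ± 0.49 for Nos1 (edgeR adjusted p 0.319), 0.56 ± 0.24 for Nos1ap (adjusted p 0.306) and -0.83 ± 0.23 for Prkg2 (adjusted p 0.103). For the ligands it was 0.74 ± 0.39 for Bdnf and 2.75 ± 1.37 for Ntf3, and for Ntrk3 it was 0.47 ± 0.25.

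Between ZT22 and ZT2, the end of the night and the early day, no member passed in edgeR or in DESeq2, and 0.0317% of all genes passed in edgeR and 0.218% in DESeq2. At an unadjusted p under 0.05 Bdnf alone was higher at ZT22, against 2.00% of all genes, by 1.00 ± 0.39 on the log2 scale (adjusted p 1.00). Ntf3 differed by 2.79 ± 1.36. Without the 3 libraries named above the Bdnf difference was -0.27, since ZT22 replicate A, at 17.3 CPM, lay below 2 of the 3 ZT2 libraries. Between ZT6 and ZT10 no member passed in edgeR or DESeq2, against 0.0475% and 1.48% of all genes, nor at an unadjusted p under 0.05 in edgeR, against 10.8%.

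The advance and the delay window were also set against each other. ZT22 and ZT14 lie in different clusters of libraries, so time and other differences between the clusters cannot be told apart here. Prkg2 was the 1 member called, higher at ZT22 by 0.71 ± 0.23 on the log2 scale (edgeR adjusted p 0.0390), against 19.1% of all genes. The call was lost without ZT14 replicate B, ZT14 replicate C, ZT22 replicate A or ZT22 replicate C (adjusted p up to 0.146). Ntrk3 had a log2 difference of 0.68 ± 0.25 (adjusted p 0.0641) and passed under 5 of the 8 alternative settings, DESeq2 among them, where 2 members (Ntrk3 and Prkg2) passed against 26.4% of all genes. Over these 8 settings the Ntrk3 difference ran from 0.23 to 0.88. Bdnf differed by 0.48 ± 0.38 and Ntf3 by 1.49 ± 1.29, and neither passed.

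Other genes of the families were measured at low levels. Neurotrophin 4, named Ntf5 in the files, had at most 3 reads in a library and was not tested. The neurotrophin receptor Ngfr, which has no kinase domain, stayed at or below 1.56 CPM in each library (edgeR adjusted p over timepoints of 0.471). Inducible Nos2 stayed at or below 1.73 CPM (adjusted p 0.0904), and endothelial Nos3 had timepoint means from 5.62 to 9.58 CPM (adjusted p 0.769).

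A wider list of 29 genes of neurotrophin binding, processing and Trk signalling held 28 tested genes, of which 20 (71.4%) changed with time and 11 cycled, against 44.0% and 29.8% of all genes. Those with the smallest p were the adaptors Frs3 and Sh2b1, the sorting receptor Sort1, the Trk scaffold Kidins220, the exchange factor Rapgef1 and the adhesion receptor Sirpa, with edgeR adjusted p between 1.83e-06 and 5.39e-05. Their high points were spread over the day, with Frs3 highest at ZT6 (46.9 ± 4.57 CPM), Sh2b1 and Rapgef1 at ZT14, Sort1 and Sirpa at ZT22 and Kidins220 at ZT2 (431 ± 100 CPM). Comparing ZT22 with ZT14, 1 of the 28 (Kidins220) was higher at ZT22 and 7 were lower, together 8, against 19.1% of all genes called in either direction.

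Sort1 and Sorcs3 belong to the sortilin family, whose founding member sortilin binds the precursor of Bdnf, and among the genes of this list and the list of nitric oxide signalling they were those that passed between ZT14 and ZT18 (0.570% of all genes) or, for Sort1, in the windows against their neighbours (0.148%). Sort1 held 145, 124 and 143 CPM at ZT14 and 65.6, 47.9 and 52.1 CPM at ZT18, a log2 difference of 1.32 ± 0.21 (edgeR adjusted p 0.0242), and these groups did not overlap. At ZT22 it held 108, 192 and 193 CPM and at ZT2 129, 137 and 129, so that its difference of windows against neighbours was 0.82 ± 0.15 (adjusted p 0.0463). Sorcs3 held 21.8, 12.4 and 15.9 CPM at ZT14 and 3.01, 6.01 and 5.86 CPM at ZT18, a log2 difference of 1.76 ± 0.38 (adjusted p 0.0470). These calls lay near the threshold. Leaving out 1 library at a time, the Sort1 difference between ZT14 and ZT18 passed in 13 of 18 fits, lost without ZT14 replicate A, B or C or ZT18 replicate B or C. The Sort1 window difference passed in 5 of 18, and the Sorcs3 difference between ZT14 and ZT18 in 4 of 18, with adjusted p up to 0.173 and 0.215. Under the 8 other settings tried, these 3 calls held in 7, 5 and 3, in the same order, and each was lost without the 3 libraries of highest telencephalic marker sum (adjusted p 0.0707, 1.00 and 0.165). In that fit of fewer libraries the ZT14 over ZT18 log2 differences were 1.29 for Sort1 and 1.79 for Sorcs3, beside 1.32 and 1.76 with all libraries, whereas the Sort1 window difference was 0.50 beside 0.82.

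A list of 41 genes of nitric oxide and cGMP signalling held 38 tested genes, of which 18 (47.4%) changed with time and 11 cycled, against 44.0% and 29.8% of all genes. None passed in edgeR inside a cluster. Among the genes with the smallest p were Spr and Pts, enzymes of the synthesis of the Nos1 cofactor tetrahydrobiopterin, Calm3, a calmodulin gene whose product activates Nos1, as well as Gucy1b1, a subunit of the guanylate cyclase that senses nitric oxide, and the cGMP phosphodiesterase Pde9a, with edgeR adjusted p between 1.62e-07 and 1.26e-05. Pts had 68.4 ± 6.65 CPM at ZT6 and 9.61 ± 4.05 at ZT2, and Spr had 42.9 ± 6.91 CPM at ZT18 and 5.33 ± 1.50 at ZT2. Gucy1b1 was lowest at ZT6 (50.2 ± 7.25 CPM) and highest at ZT14 (177 ± 11.2 CPM), and Calm3 was lowest at ZT2 and highest at ZT6. Pde9a, which degrades cGMP, was highest at ZT2, with 58.0 ± 7.12 CPM at ZT2 and 16.2 ± 3.48 at ZT10. Comparing ZT22 with ZT14, 3 of the 38 were higher at ZT22 and 10 lower, against the same 19.1% of all genes.

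The patterns of the members were also compared with each other and with 15759 genes of at least 10 counts on average, by Pearson's r of log2 CPM over the 18 libraries, which share timepoints, clusters and depth. Ntrk2 and Ntrk3 were the most alike among the members (r = 0.76), followed by Nos1 with Ntf3 and Ntrk2 with Prkg2 (both 0.66) and Bdnf with Ntf3 (0.64). Bdnf and its receptor Ntrk2 had an r of 0.22. The nearest genes were Btbd10, Npy and Krt73 for Bdnf (r = 0.78 to 0.83), Mastl, Slc9a2 and Mas1 for Ntf3 (0.87 to 0.88), and Fstl4, Wdr19 and Adcy6 for Nos1 (0.90 to 0.92). For Nos1ap they were Atp9b, Ylpm1 and Il1rapl2 (0.75 to 0.79), and for Prkg1 Gm12788, Krt28 and Ccdc112 (0.85 to 0.88). For Ntrk2 they were Pitpnc1, Parva and Gm6768 (0.94 to 0.95), for Ntrk3 Syt11, Ncan and Pik3r4 (0.93 to 0.94), and for Prkg2 Idh1, Accs and Rfxank (0.85 to 0.87).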

How the data were processed

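Total RNA (about 1 ng) from laser-captured SCN was amplified (SMARTer) and sequenced as 100 bp paired ends. The submitters' processing notes name GSNAP, HTSeq 0.5.4p1, DESeq2 and mm10 (GRCm38). Values were read counts per Ensembl gene, deposited by the authors with the lanes of a library summed. A second deposited table held signal, that is gene counts divided by size factors by the authors, from which whole reads were recovered in every library (100% of values within 0.1 of a whole number). These reads differed from the count table for most genes in the ZT6 and ZT10 libraries and for few in the others. Symbols were matched for 97.2% of gene identifiers.

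Counts were fitted with edgeR 4.0.16 (quasi-likelihood F-test, TMM, R 4.3.3), with Benjamini-Hochberg adjustment over 18941 genes and a threshold of 0.05. CPM values use TMM library sizes. Cycling also required a p under 0.05 from JTK_CYCLE (written anew, 24 h period, 6 lags, Bonferroni over lags). The scripts were tested on simulated data. Groups follow the sample titles. Every label names a separate pool, and p-values measure the spread between pools. The members, gene lists and marker lists were chosen with earlier results of these data known. Named outside the members were the families' other genes, up to 6 genes per list with the smallest time-test p, any gene past the threshold inside a cluster, 3 nearest patterns per member, and 3 clock genes. Some genes that this rule names are not reported here.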

Additional observations from a re-analysis of the deposited data

How the results depend on the processing

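Under the alternatives tried (DESeq2 1.42.0, DESeq2 size factors, upper-quartile scaling, at least 10 counts in every replicate, no filter, the replicate block, recovered reads, a limma 3.58.1 cosinor, JTK_CYCLE on the authors' values or with adjustment over genes, and each library left out), no call on a member was reversed. Bdnf's change with time was lost with DESeq2 size factors (edgeR adjusted p 0.0568), with the replicate block (0.0873) and on recovered reads (0.0668). The log2 difference between its ZT22 and ZT6 means was 1.33, 1.35 and 1.15 in the same order, beside 1.35 in the main setting. Equal letters did not pair libraries, since 0 of 45 same-letter pairs had deviations correlated above 0.1, and with the replicate block 4 members changed with time. Prkg2 made 1 member between ZT14 and ZT18 in DESeq2. Between ZT22 and ZT14, 2 members (Ntrk3 and Prkg2) passed with DESeq2, with its size factors, with upper-quartile scaling, with at least 10 counts and with no filter. On recovered reads 1 member (Ntrk3) cycled. With at least 10 counts in every replicate Ntf3 and Prkg1 were not tested. Leaving out 1 library, 3 (without ZT22 replicate B or C) to 5 members changed with time, 2 to 3 cycled, 0 to 1 passed in the windows against their neighbours, and 0 to 2 between ZT22 and ZT14. In these fits the Ntrk2 difference of the windows ran from -0.10 to 0.0033.

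Without the 3 libraries of highest telencephalic marker sum, added after seeing the data, 2 members changed with time (Ntrk3 and Prkg2), 0 cycled and 0 differed between ZT22 and ZT14, and 5749 of all genes changed with time. Of the lost calls, the log2 difference of Ntrk2 between ZT2 and ZT10 was then still 0.52 (adjusted p 0.0665), and that of Prkg2 between ZT22 and ZT14 was 0.84 (0.251) beside 0.71 with all libraries. The differences of Bdnf between ZT22 and ZT2 (-0.27) and between ZT22 and ZT14 (-0.65) and of Ntf3 between ZT22 and ZT14 (-0.34) then turned negative. Counts over all genes were larger in DESeq2, at 460 against 28 for the windows, 844 against 108 for ZT14 and ZT18, 34 against 6 for ZT22 and ZT2 and 252 against 9 for ZT6 and ZT10. Under the other alternatives that use all libraries they were 13 to 133, 71 to 245, 4 to 16 and 2 to 16, and leaving out 1 library 0 to 124, 0 to 225, 1 to 17 and 2 to 50. With adjustment of JTK_CYCLE over genes 3657 genes cycled, against 5649. Depth limits the lowest values of Ntf3 and Prkg1, which had no read in some libraries, and 3 pools per timepoint limit every difference.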

Other observations

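Rasd1, a small Ras-like G protein that Nos1ap links to Nos1, was not singled out by the rule for named genes and was chosen after its values were seen. Its libraries held 1717, 1227 and 940 CPM at ZT14, 1000.0, 973 and 694 at ZT18, and 489, 522 and 366 at ZT10. At ZT6 they held 135, 131 and 98.6 CPM, at ZT2 13.8, 40.1 and 115, and at ZT22 432, 55.8 and 116. The ZT14 mean of 1295 ± 393 CPM (SD, n = 3) stood far above the ZT2 mean of 56.1 ± 52.2 CPM, and the edgeR adjusted p over timepoints was 0.00012. The call held without any single library (highest adjusted p 0.00064). ZT14 and ZT18 overlapped and both lay above every other timepoint, whereas ZT18 was among the low timepoints of Nos1 and Nos1ap. The difference between these genes was not tested. The summed level of 8 oligodendrocyte markers, all of which changed with time and none of which was at 0 in every library, split the libraries in the same way, with 4798 to 6139 CPM at ZT14 and ZT18 and 1315 to 4477 CPM elsewhere. The part of these markers in the Rasd1 result was not tested. Time and other differences between the clusters of libraries cannot be told apart for the change of Rasd1 across them. Inside the clusters no comparison of Rasd1 passed after adjustment, at 0.54 ± 0.61 on the log2 scale for ZT14 over ZT18 (adjusted p 0.787), 1.84 ± 0.63 for ZT22 over ZT2 (1.00) and -1.92 ± 0.63 for ZT6 over ZT10 (0.351), where the libraries did not overlap.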
